A study of Mus musculus with 24 samples.

Results

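The costimulatory and checkpoint ligands examined here were the products of 8 genes, Cd40, Cd80, Cd86, Cd83, Cd274, Pdcd1lg2, Icosl and Tnfsf9, which were taken by exact gene symbol from 2 expression tables of 56691 genes each. Every member matched 1 gene in both tables, and 8 of 8 had a value above 0 in at least 1 library of each table. The libraries were poly(A) RNA-seq of mouse macrophages with and without Olfml3, an olfactomedin-like gene whose effect on macrophage function the study addressed. RAW264.7, a mouse macrophage cell line transformed by Abelson leukemia virus, was represented by wild-type cells and by cells labelled Olfml3 knockout, which the study derived as single-cell CRISPR-Cas9 clones after lentiviral delivery of guides; the labels do not say how many clones were sequenced. Bone marrow-derived macrophages (BMDMs) came from wild-type mice and from C57BL/6 mice lacking Olfml3 in the germ line (Olfml3-/-), both made from males aged 8 weeks and cultured for 6 days. Within each cell type and genotype, cells received PBS or 100 ng/mL lipopolysaccharide (LPS) for 4 h, giving 8 groups of 3 libraries and 24 libraries in all. Total counts ranged from 11638273 to 16478616 in the RAW264.7 libraries and from 17121240 to 22873094 in the BMDM libraries.

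A T cell needs a signal through its antigen receptor and a second signal from surface ligands on the presenting cell. CD80 and CD86 supply that second signal through CD28 and are also bound by the inhibitory receptor CTLA-4, ICOSL acts on ICOS, and 4-1BBL, the product of Tnfsf9, acts on 4-1BB. CD40 works in the other direction, as a receptor through which T cell CD40L activates the macrophage, and CD83 keeps CD86 and MHC class II at the cell surface. PD-L1 (Cd274) and PD-L2 (Pdcd1lg2) restrain T cells through PD-1. Sensing of LPS by TLR4 is a classical stimulus for these genes in macrophages and dendritic cells.

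The targeted gene was examined first. In BMDMs, Olfml3 was at 0.53 to 0.65 FPKM (fragments per kilobase of exon, scaled by the library's counted total) in wild-type PBS libraries and at 0.24 to 0.25 FPKM in wild-type LPS libraries. It was at 0.01 to 0.03 FPKM and at 0 to 0.01 FPKM in the corresponding Olfml3-/- libraries. In RAW264.7 its level opposed the labels, with 0.15 to 0.19 FPKM in wild-type PBS libraries against 0.65 to 1.19 FPKM in PBS libraries labelled knockout, and with 0.13 to 0.29 against 18.33 to 18.93 FPKM after LPS. Gene-level values do not show whether the transcript carries a disrupting mutation, so the RAW264.7 groups are called by their labels throughout. Groups followed the sample titles, since the genotype field contradicted the title in 12 of 24 samples. The RAW264.7 library labelled knockout, PBS replicate 1, stood apart: its correlation was 0.964 with its own group and 0.973 with the wild-type PBS group. Log2 values without it are given for the called members whose comparison it enters. Nothing in the labels states that the 3 libraries of a group came from separate cultures or animals, so p-values measure only the spread between these libraries.

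Macrophage markers were checked in all libraries. In BMDMs 8 of 8 listed markers averaged at least 1 FPKM in every group, and their summed level was 12370 to 17810 FPKM. In RAW264.7, Mertk was at 0 in 12 of 12 libraries, the other 7 markers averaged at least 1 FPKM, and the sum was 3344 to 4013 FPKM in wild-type libraries but 1145 to 1420 FPKM in libraries labelled knockout. Abundant markers weigh most in these sums. Over the 12 RAW264.7 libraries Lyz2 ranged from 259 to 2264 FPKM and Cd14 from 90.4 to 1152 FPKM, against 1.27 to 8.68 FPKM for Itgam. The summed dendritic cell list of 8 genes was 8.81 to 10.3 FPKM in PBS libraries labelled knockout against 1.24 to 1.44 FPKM in wild-type PBS libraries, and 4.34 to 5.08 against 1.65 to 2.14 FPKM after LPS. Ccr7 was at 0 in 12 of 12 RAW264.7 libraries, whereas Siglech ranged up to 9.72 FPKM. In BMDMs the T cell list summed to 13.7 to 65.8 FPKM, of which Cd28 held 5.66 to 59.0 FPKM, while Cd3d, Cd3e, Cd3g and Cd8a were at 0 in 12 of 12 libraries. In whole cultures such as these, fewer cells of a type and less RNA per cell cannot be told apart.

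Promoter sequences are shown for all members that RefSeq's table for GRCm38.p6 held, 4 of 8. Among them, Cd80 and Icosl differed in opposite directions between genotypes after LPS in RAW264.7, and Cd274 and Pdcd1lg2 are neighbours with very different levels. Each is 300 bases on the strand of the gene, 250 before and 50 from the annotated start, printed 5′ to 3′: Cd80 at chr16:38458683-38458982 (plus strand), Icosl at chr10:78069118-78069417 (plus strand), Cd274 at chr19:29367188-29367487 (plus strand) and Pdcd1lg2 at chr19:29410669-29410968 (plus strand). The Cd80 window lies inside the gene as the GENCODE M21 annotation of GRCm38 gives it, 38455561 to 38496335. Its positions are therefore counted from a start within that span and not from the gene's first base. In the same annotation Icosl begins at 78069302, inside its window and before the start used here. The Icosl positions are thus not counted from the gene's first base either. Capitals mark matches on either strand to 5 short patterns. These were GGG and CC with 5 bases between them for NF-kB, GAAA and GAAA with 2 between for the interferon element ISRE, TTC and GAA with 3 between for the STAT element GAS, TGA and TCA with 1 between for AP-1, and TATAAA for the TATA box.
Cd80: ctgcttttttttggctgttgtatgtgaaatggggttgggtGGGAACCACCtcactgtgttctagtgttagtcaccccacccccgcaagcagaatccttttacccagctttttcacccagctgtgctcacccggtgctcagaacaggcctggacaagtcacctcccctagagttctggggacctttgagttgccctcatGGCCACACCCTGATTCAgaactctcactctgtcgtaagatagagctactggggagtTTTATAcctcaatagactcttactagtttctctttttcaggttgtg
Icosl: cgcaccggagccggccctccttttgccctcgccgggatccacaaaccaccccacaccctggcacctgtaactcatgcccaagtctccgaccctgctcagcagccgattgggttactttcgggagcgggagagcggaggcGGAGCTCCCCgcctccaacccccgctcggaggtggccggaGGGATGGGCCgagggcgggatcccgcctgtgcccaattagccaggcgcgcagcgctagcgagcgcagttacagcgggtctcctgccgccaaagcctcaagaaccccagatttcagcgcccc
Cd274: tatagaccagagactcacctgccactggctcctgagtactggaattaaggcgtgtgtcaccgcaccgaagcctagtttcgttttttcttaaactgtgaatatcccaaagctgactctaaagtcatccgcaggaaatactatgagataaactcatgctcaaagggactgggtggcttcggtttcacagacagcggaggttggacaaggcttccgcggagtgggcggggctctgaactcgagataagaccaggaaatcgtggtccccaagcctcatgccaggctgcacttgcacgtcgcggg
Pdcd1lg2: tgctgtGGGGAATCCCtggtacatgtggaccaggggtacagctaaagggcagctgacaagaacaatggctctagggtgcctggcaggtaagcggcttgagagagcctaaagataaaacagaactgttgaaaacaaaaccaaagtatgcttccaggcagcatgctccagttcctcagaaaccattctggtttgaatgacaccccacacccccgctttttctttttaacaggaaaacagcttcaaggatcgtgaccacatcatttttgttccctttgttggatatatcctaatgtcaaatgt

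Counting from 0 at the annotated start, the Cd80 window held the NF-kB pattern at positions -210 to -201 and -52 to -43, the AP-1 pattern directly after the latter at -42 to -36, and the TATA letters at 4 to 9 on the other strand. The Icosl window held the NF-kB pattern at -111 to -102 and at -71 to -62. In Pdcd1lg2 it was found at -244 to -235, where the same 10 letters matched on both strands. None of the 5 patterns was found in the Cd274 window, which says only that these letters are not in these 300 bases. Of 32851 promoters of this length, 50.8% held the NF-kB pattern, 3.44% the ISRE pattern, 8.3% the GAS pattern, 7.81% the AP-1 pattern and 13.6% the TATA letters, so the NF-kB letters alone set no promoter apart. The GC content was 49.7% for Cd80, 68% for Icosl, 52.7% for Cd274 and 46% for Pdcd1lg2.

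The genes lie on chromosomes 2, 10, 13, 16, 17 and 19 in the tables, whose coordinates are given as deposited: the build is not settled, because only 2.76% of 52073 genes have the same position in the GRCm38 annotation although the submitters' notes name mm10. On those coordinates Cd80 (chromosome 16, 38275923 to 38316697) and Cd86 (chromosome 16, 36424231 to 36486443) are 1789479 bases apart. Cd274 (chromosome 19, 29344855 to 29365495) and Pdcd1lg2 (chromosome 19, 29388319 to 29448561) are 22823 bases apart, with 0 genes of the table between them. Cd40 spans 164897547 to 164914868 of chromosome 2, Cd83 spans 43938251 to 43956608 of chromosome 13, Icosl spans 77905136 to 77919747 of chromosome 10 and Tnfsf9 spans 57412325 to 57414757 of chromosome 17.

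**Figure D1:**
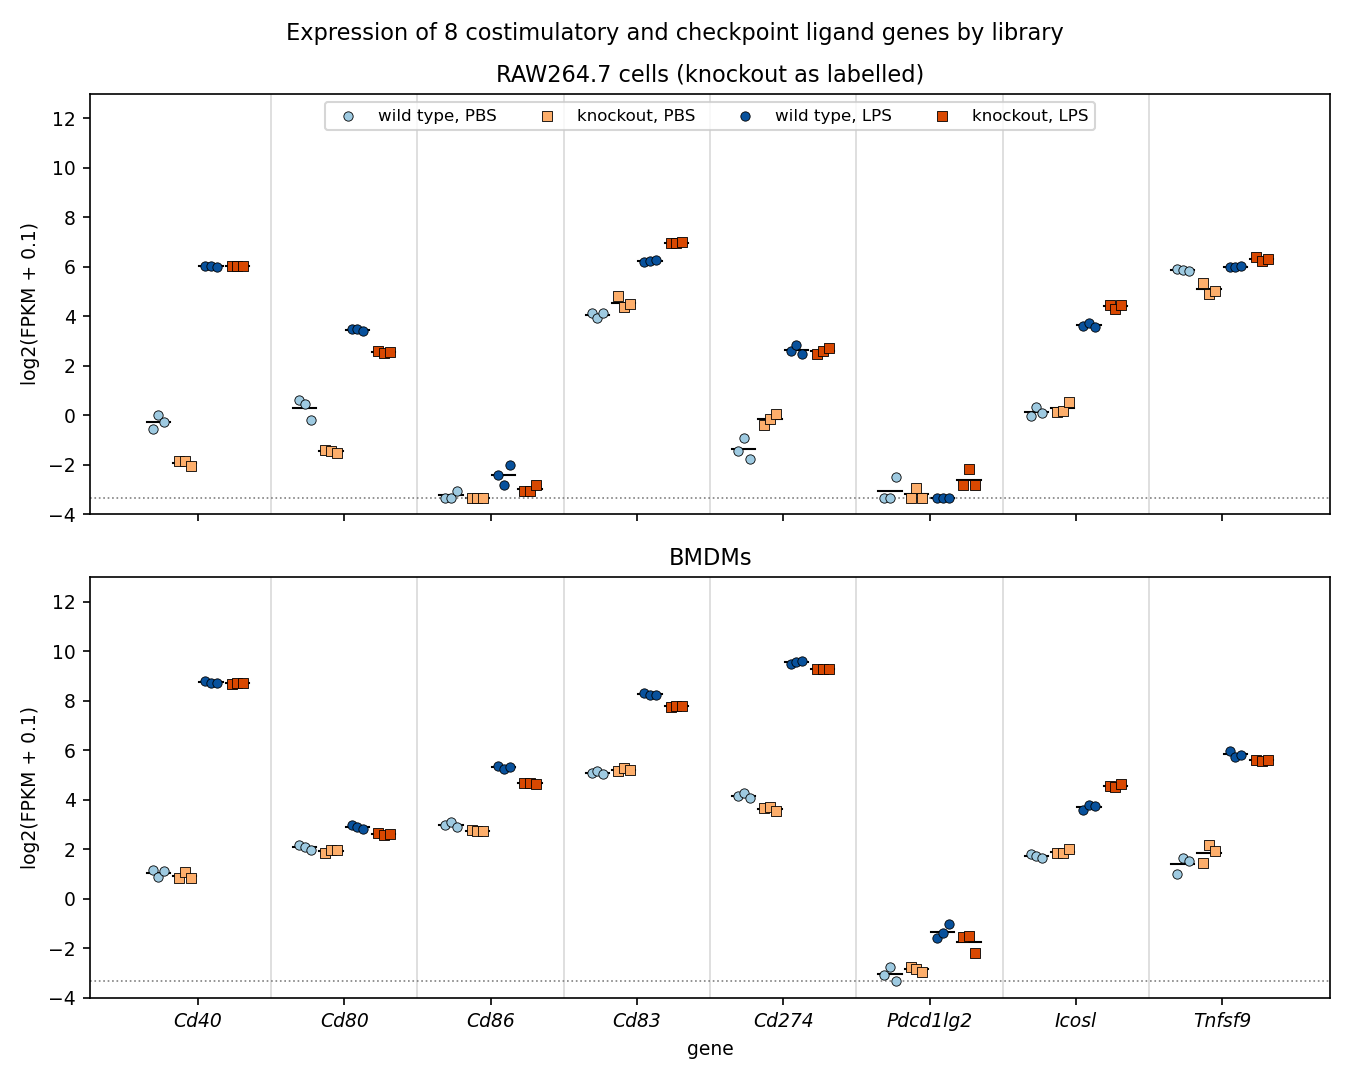
Level of the 8 genes in each library as log2(FPKM + 0.1), with group means as lines and a dotted line at 0 FPKM, for RAW264.7 cells and BMDMs by labelled genotype and treatment. LPS libraries lie above PBS libraries for all 8 genes in BMDMs, while Cd86 and Pdcd1lg2 lie at or below 0.15 FPKM in all RAW264.7 libraries.

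The order of levels differed between the cell types, and since the tables were normalized separately the levels are set side by side without a test. In wild-type BMDMs with PBS, Cd83 was highest at 34.0 ± 1.46 FPKM (SD, n = 3), followed by Cd274 at 17.9 ± 1.31, Cd86 at 7.85 ± 0.556, Cd80 at 4.14 ± 0.296, Icosl at 3.21 ± 0.162, Tnfsf9 at 2.56 ± 0.571, Cd40 at 2.00 ± 0.210 and Pdcd1lg2 at 0.0233 ± 0.0252 FPKM. Only the neighbours Tnfsf9 and Cd40 had overlapping libraries in that order. In wild-type BMDMs with LPS the order was Cd274, Cd40, Cd83, Tnfsf9, Cd86, Icosl, Cd80 and Pdcd1lg2, with no overlap between neighbours, and Olfml3-/- LPS BMDMs had the same order, again with none. In wild-type RAW264.7 cells with PBS, Tnfsf9 was highest at 58.4 ± 1.14 FPKM and Cd83 was next at 16.6 ± 1.28 FPKM. Cd80, Icosl and Cd40 followed at 1.16 ± 0.338, 1.01 ± 0.148 and 0.747 ± 0.160 FPKM, of which Cd80 overlapped Icosl and Icosl overlapped Cd40. Cd274 was at 0.297 ± 0.122 FPKM, and Pdcd1lg2 and Cd86 were close to 0.

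LPS raised the members in BMDMs. Of the 8 members, 8 were called higher in wild-type and 8 in Olfml3-/- BMDMs; of all genes tested, 40.4% were called in wild-type BMDMs, 7.94% higher and 32.5% lower, and 38.9% in Olfml3-/- BMDMs, 8.02% higher and 30.9% lower. Calls needed a fold change of 1.5 or more together with an adjusted p below 0.05. The median log2 change was 2.75 over the members and -0.30 over all genes tested in wild-type BMDMs, and 2.61 and -0.28 in Olfml3-/- BMDMs. Scaling by the median of ratios moved the median of all genes to 0 and the share of higher genes among the called from 19.7% to 47.9% in wild-type and from 20.6% to 46.8% in Olfml3-/- BMDMs, so changes after LPS are relative to that shift. In other comparisons that scaling moved the median of all genes tested by at most 0.0653. Over the genes averaging at least 1 FPKM it moved the median more, from -0.73 to 0.06 and from -0.62 to 0.06 for LPS in wild-type and Olfml3-/- BMDMs, from -0.21 to 0.03 and from -0.23 to 0.03 for LPS in wild-type and labelled knockout RAW264.7 cells, from 0.14 to -0.0083 between the BMDM genotypes with LPS and from 0.11 to 0.0063 for the BMDM interaction.

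Cd40, the receptor for T cell CD40L, had the steepest rise of the set in BMDMs. It was at 2.16, 1.76 and 2.07 FPKM in wild-type PBS libraries and at 445.39, 418.58 and 422.05 FPKM in wild-type LPS libraries. The Olfml3-/- libraries held 1.67, 2.04 and 1.70 FPKM with PBS and 411.65, 423.85 and 419.79 FPKM with LPS. The LPS libraries lay far above the PBS libraries, by a 215-fold higher mean in wild-type cells (log2 change 7.68 ± 0.09 SE) and a 232-fold higher mean in Olfml3-/- cells (7.79 ± 0.09 SE). The genotypes overlapped under both treatments.

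Among the B7 ligands of CD28, Cd86 had a larger log2 change with LPS than Cd80 in BMDMs. Cd86 went from 7.81, 8.43 and 7.32 FPKM with PBS to 41.43, 37.95 and 39.82 FPKM with LPS in wild-type libraries, a log2 change of 2.33 ± 0.06 (SE). Cd80 went from 4.42, 4.16 and 3.83 FPKM to 7.85, 7.42 and 7.03 FPKM, a log2 change of 0.83 ± 0.07 (SE). The ratio of Cd86 to Cd80 within a library was therefore 1.77 to 2.03 with PBS and 5.12 to 5.66 with LPS in wild-type BMDMs, and 1.71 to 1.93 and 4.01 to 4.43 in Olfml3-/- BMDMs. Icosl, the third B7 member, rose 4.08-fold in wild-type and 6.48-fold in Olfml3-/- BMDMs. Tnfsf9, a TNF family ligand, rose 22.4-fold and 13.6-fold in mean FPKM.

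Cd83 and the checkpoint ligand Cd274 ended among the 3 highest members after LPS in BMDMs. Cd83 rose 9.02-fold in wild-type and 5.92-fold in Olfml3-/- BMDMs. Cd274 rose from 17.70, 19.28 and 16.67 FPKM to 724.34, 768.18 and 776.40 FPKM in wild-type libraries, and from 12.53, 13.07 and 11.71 to 623.39, 629.26 and 620.16 FPKM in Olfml3-/- libraries. These are 42.3-fold and 50.2-fold changes of the mean. Pdcd1lg2, its neighbour on chromosome 19, stayed low. The 3 wild-type libraries held 1, 2 and 0 counts with PBS and 10, 12 and 17 counts with LPS, a ratio of 12.8 per total count with a 95% exact counting interval of 4.09 to 65.0. The Olfml3-/- libraries held 2, 2 and 1 counts with PBS and 10, 11 and 4 with LPS, a ratio of 5.03 with an interval of 1.89 to 16.8. Such intervals cover counting error only. With a pseudocount of 1 in place of 0.1, both Pdcd1lg2 calls were lost (log2 changes 0.34 and 0.21), as was the Cd80 call in Olfml3-/- BMDMs (0.57).

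In RAW264.7, LPS raised 6 of 8 members in wild-type cells and 6 of 8 in cells labelled knockout, against 18.3% and 22.1% of all genes called in either direction and 5.8% and 7.45% called higher. The share of higher genes among the called was 31.7% in wild-type cells and 33.8% in cells labelled knockout, and became 49.7% and 51.7% with median-ratio scaling. The members called in both were Cd40, Cd80, Cd83, Cd274 and Icosl. The remaining call was Cd86 in wild-type cells and Tnfsf9 in cells labelled knockout. Without the library that stood apart, the log2 changes in cells labelled knockout were 7.98 for Cd40, 4.03 for Cd80, 2.54 for Cd83, 2.64 for Cd274, 4.04 for Icosl and 1.34 for Tnfsf9, and 21.8% of all genes were called.

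Cd40 was again the member with the largest change. Wild-type RAW264.7 libraries held 0.59, 0.91 and 0.74 FPKM with PBS and 65.85, 65.10 and 64.33 FPKM with LPS. Libraries labelled knockout held 0.18, 0.18 and 0.14 FPKM with PBS and 65.34, 65.80 and 64.84 FPKM with LPS. The genotypes were therefore apart with PBS and overlapped with LPS. The log2 changes with LPS were 6.28 ± 0.13 (SE) and 7.94 ± 0.13 (SE).

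Icosl and Cd274 rose from low levels. Icosl went from 0.88, 1.17 and 0.97 FPKM to 12.19, 13.30 and 11.67 FPKM in wild-type libraries and from 1.00, 1.04 and 1.35 FPKM to 21.72, 19.76 and 21.63 FPKM in libraries labelled knockout. Cd274 reached 5.87, 6.98 and 5.49 FPKM with LPS in wild-type libraries and 5.39, 6.01 and 6.49 FPKM in libraries labelled knockout, which overlapped. Cd83 rose 4.54-fold and 5.32-fold.

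Cd86 and Pdcd1lg2 were near the detection limit in RAW264.7, where 3 counts correspond to 0.0497 to 0.0704 FPKM of Cd86. The libraries held 0, 0 and 1 counts of Cd86 in wild-type PBS cells and 4, 2 and 8 counts in wild-type LPS cells. That is a ratio of 14.2 per total count with a 95% exact counting interval of 2.17 to 602. The call in wild-type cells (log2 change 0.82 ± 0.18 SE, adjusted p = 0.00805) was lost with edgeR on the counts (adjusted p = 0.0631) and with a pseudocount of 1 (log2 change 0.12). The libraries labelled knockout held 0, 0 and 0 counts with PBS and 1, 1 and 2 with LPS. Pdcd1lg2 had at most 3 counts in any of the 12 libraries. With LPS it had 0, 0 and 0 counts in wild-type libraries and 1, 3 and 1 in libraries labelled knockout. The genotypes were apart but the difference was not called (adjusted p = 0.0714). It was called in a fit of the LPS groups alone (adjusted p = 0.0481) and without wild-type PBS replicate 3 (adjusted p = 0.0286), and no fold is given at these counts.

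**Figure D2:**
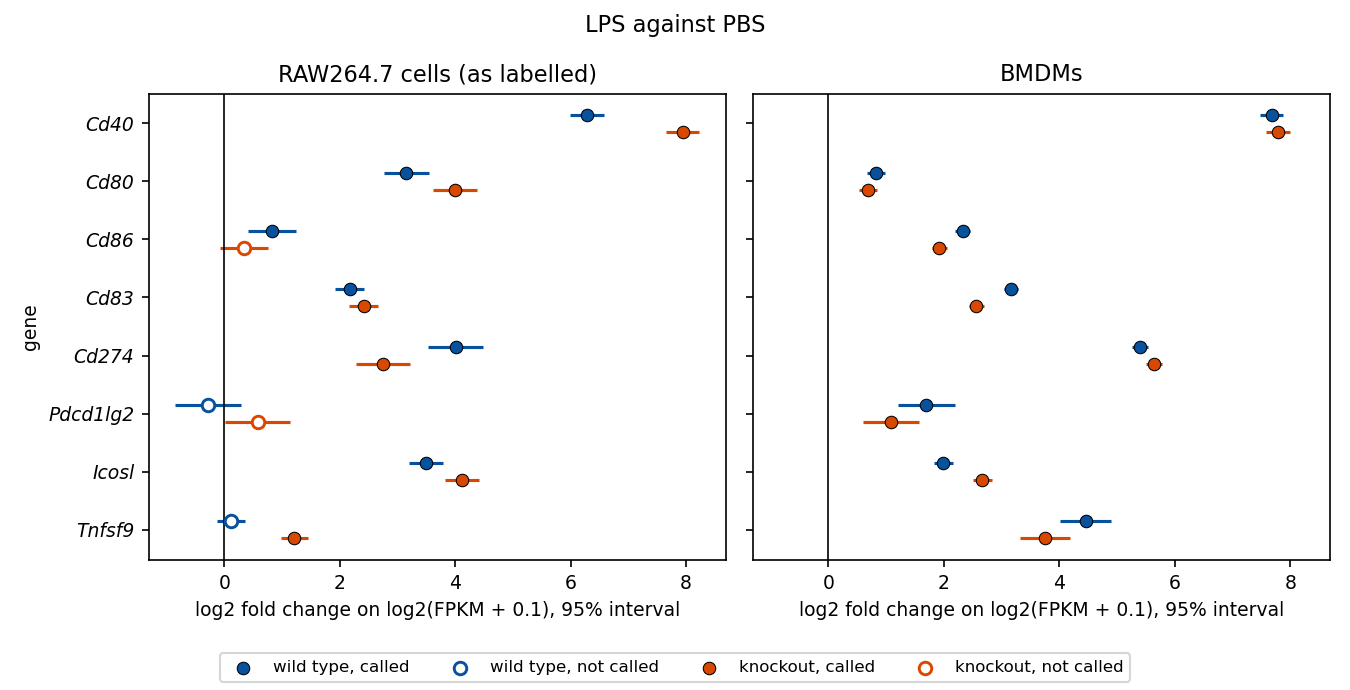
Log2 fold change between LPS and PBS on log2(FPKM + 0.1) for each gene, with 95% intervals from limma, in wild-type libraries and in libraries labelled knockout, for RAW264.7 cells and BMDMs. Filled points passed the test; all 16 BMDM points do, and Cd40 lies farthest to the right in every group.

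The comparison of genotypes at rest showed most differences in RAW264.7. With PBS, libraries labelled knockout had lower Cd40, Cd80 and Tnfsf9 and higher Cd274, so that 4 of 8 members were called against 8.55% of all genes tested, 4.79% higher and 3.76% lower. The share of higher genes among the called was 56% and became 47.3% with median-ratio scaling and 72.5% with TPM. The median log2 difference was -0.12 over the members and 0.02 over all genes tested. In these same libraries the macrophage marker sum was lower and the dendritic list sum higher, as given above, and their part in the differences was not tested.

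Cd40 with PBS had a 4.48-fold lower mean in libraries labelled knockout (log2 difference -1.65 ± 0.13 SE, adjusted p = 4.09e-05). Cd80 was at 1.42, 1.29 and 0.78 FPKM in wild-type libraries and at 0.28, 0.27 and 0.25 FPKM in libraries labelled knockout. The groups were apart, with a 4.36-fold lower mean (log2 difference -1.75 ± 0.17 SE, adjusted p = 0.000190). Tnfsf9, the most abundant member at rest in this line, was at 59.62, 58.11 and 57.38 FPKM in wild-type libraries and at 40.64, 29.99 and 32.28 FPKM in libraries labelled knockout, a log2 difference of -0.78 ± 0.11 (SE, adjusted p = 0.00158). The library that stood apart, replicate 1, held the 40.64 FPKM. Cd274 moved the other way, from 0.27, 0.43 and 0.19 FPKM to 0.67, 0.81 and 0.93 FPKM, again without overlap (log2 difference 1.22 ± 0.21 SE, adjusted p = 0.00560). Cd83 was at 17.24, 15.17 and 17.51 FPKM against 27.79, 20.52 and 22.38 FPKM and was under the fold threshold (log2 difference 0.49 ± 0.11 SE, adjusted p = 0.0234), although it passed as TPM at 0.68. The 27.79 FPKM was in the library that stood apart, without which the log2 difference of Cd83 was 0.37.

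Without replicate 1 of the PBS libraries labelled knockout the share of all genes called was 20.8%, and it was 4.88% to 5.44% without any one of the other 5 PBS libraries. Without that replicate the same 4 members were called, with log2 differences of -1.69 for Cd40, -1.77 for Cd80, -0.91 for Tnfsf9 and 1.33 for Cd274. Fitted on the PBS groups alone, Cd274 and Tnfsf9 were not called (adjusted p = 0.0719 and 0.0544). With a pseudocount of 1, Cd40 and Cd274 fell under the fold threshold (log2 differences -0.58 and 0.48). Icosl, with a log2 difference of 0.15 and a 95% interval of -0.15 to 0.45, was not called.

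With LPS, libraries labelled knockout had lower Cd80 and higher Cd83 and Icosl, 3 of 8 members against 17.3% of all genes tested, 9.73% higher and 7.6% lower. The share of higher genes among the called was 56.1%, and 75.8% with TPM. Cd80 was at 10.99, 11.01 and 10.50 FPKM in wild-type libraries and at 5.94, 5.64 and 5.71 FPKM in libraries labelled knockout (log2 difference -0.90 ± 0.17 SE, adjusted p = 0.00577). Cd83 was at 73.77, 75.16 and 77.48 FPKM against 123.54, 125.70 and 126.69 FPKM (0.73 ± 0.11 SE, adjusted p = 0.00189). Icosl had a 1.70-fold higher mean (0.76 ± 0.13 SE, adjusted p = 0.00363). None of these 3 genes had overlapping groups. The macrophage marker sum was 1215 to 1278 FPKM in these libraries against 3880 to 4013 FPKM in wild-type LPS libraries, and its part in the differences was not tested.

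Cd40 and Cd274 did not differ beyond their spread between the LPS groups of RAW264.7, with log2 differences of 0.01 (95% interval -0.28 to 0.29) and -0.03 (-0.50 to 0.44). Tnfsf9 was at 62.98, 63.02 and 64.53 FPKM in wild-type libraries and at 82.99, 76.13 and 78.35 FPKM in libraries labelled knockout. The groups were apart, but the difference was not called (log2 difference 0.32 ± 0.11 SE, adjusted p = 0.0577). Cd86 counts of 4, 2 and 8 against 1, 1 and 2 passed the adjusted p but not the fold threshold (log2 difference -0.57, adjusted p = 0.0472), and were called after median-ratio scaling or quantile normalization.

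The interaction, the LPS difference between the genotypes minus their PBS difference, was called for Cd40 and Tnfsf9 in RAW264.7, 2 of 8 members against 1.95% of all genes tested, 0.905% higher and 1.04% lower. Without the library that stood apart that share was 3.41%, and the interactions were 1.70 for Cd40, 1.22 for Tnfsf9 and 0.87 for Cd80. For Cd40 it was 1.66 ± 0.18 (SE, adjusted p = 0.00157), with groups apart with PBS and overlapping with LPS. For Tnfsf9 it was 1.09 ± 0.15 (SE, adjusted p = 0.00595): the wild-type libraries were at 57.38 to 59.62 FPKM with PBS and 62.98 to 64.53 FPKM with LPS (log2 change 0.12 ± 0.11 SE, not called), whereas the libraries labelled knockout went from 29.99 to 40.64 FPKM up to 76.13 to 82.99 FPKM (1.22 ± 0.11 SE). The Cd274 interaction of -1.25 ± 0.30 (SE) missed the threshold (limma adjusted p = 0.0749). It passed in limma without the library that stood apart (-1.36, adjusted p = 0.0443) and without wild-type PBS replicate 2 (-1.49, adjusted p = 0.0201). It passed too when only genes of at least 1 FPKM in 3 libraries were tested (limma adjusted p = 0.0359), and in both count models, edgeR (-1.43) and DESeq2 (-1.41). The Cd80 interaction of 0.85 ± 0.24 (SE, adjusted p = 0.163) also passed in edgeR (1.21) and DESeq2 (1.25), and without wild-type PBS replicate 3 (1.09). That of Icosl, 0.61 (adjusted p = 0.198), passed with a pseudocount of 1 (0.63), quantile normalization (0.80) and DESeq2 (0.64). Without the library that stood apart it was 0.54 and did not pass. The Cd40 call was lost with a pseudocount of 1, where the value was 0.58.

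In BMDMs with PBS, 0 of 8 members were called between the genotypes by limma, against 1.81% of all genes tested, 0.901% higher and 0.905% lower. edgeR and DESeq2 also called 0, and 4 members had an unadjusted limma p under 0.05, namely Cd86, Cd274, Icosl and Tnfsf9. The share of all genes at that unadjusted p was not computed, so this count does not set the members apart. Cd274 came closest: its libraries were apart, with 17.70, 19.28 and 16.67 FPKM in wild-type against 12.53, 13.07 and 11.71 FPKM in Olfml3-/- cells. The log2 difference of -0.52 ± 0.06 (SE, adjusted p = 0.00154) was under the fold threshold, and it passed at -0.63 after quantile normalization. Cd86 was at 7.81, 8.43 and 7.32 FPKM in wild-type against 6.77, 6.62 and 6.53 FPKM in Olfml3-/- libraries, also apart but not significant (-0.24 ± 0.06 SE, adjusted p = 0.0600).

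With LPS, Olfml3-/- BMDMs had less Cd86 and more Icosl, 2 of 8 members against 4.76% of all genes tested, 3.23% higher and 1.53% lower. The share of higher genes among the called was 67.9% and became 43.4% with median-ratio scaling. Cd86 was at 41.43, 37.95 and 39.82 FPKM in wild-type libraries and at 25.19, 25.80 and 25.14 FPKM in Olfml3-/- libraries, a 1.57-fold lower mean (log2 difference -0.64 ± 0.06 SE, adjusted p = 0.000106). Icosl was at 12.06, 13.75 and 13.49 FPKM in wild-type libraries and at 23.16, 23.03 and 24.79 FPKM in Olfml3-/- libraries, a 1.81-fold higher mean (log2 difference 0.85 ± 0.07 SE, adjusted p = 7.49e-05). All 3 Olfml3-/- libraries lay outside the wild-type range for either gene. The Cd86 call was lost after quantile normalization, where the log2 difference was -0.58. Between the same groups the summed dendritic cell list was 9.18 to 9.88 FPKM in Olfml3-/- against 7.02 to 7.08 FPKM in wild-type libraries, the T cell list 13.7 to 13.9 against 21.75 to 23.96 FPKM, and the NK cell list of 6 genes 1.09 to 1.22 against 4.10 to 4.30 FPKM, with Nkg7 and Gzma at 0 in 12 of 12 BMDM libraries. These sums rest on few genes. Klrk1 alone ranged up to 4.30 FPKM in BMDMs, as high as the highest NK sum. In the T cell list Cd28 went the other way, averaging 6.56 FPKM in Olfml3-/- against 5.90 FPKM in wild-type LPS libraries, while Lck ranged up to 12.7 FPKM in BMDMs. The macrophage sum was 12870 to 13150 against 12370 to 12640 FPKM, and the part of these lists in the differences was not tested.

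With LPS, the differences of Cd83, Cd80 and Cd274 between the BMDM genotypes passed the adjusted p but not the fold threshold. Cd83 was at 321.71, 299.39 and 299.73 FPKM in wild-type libraries and at 216.50, 224.16 and 218.16 FPKM in Olfml3-/- libraries (log2 difference -0.48 ± 0.05 SE, adjusted p = 0.000337). Its difference passed both thresholds with median-ratio scaling (-0.64), edgeR (-0.62) and DESeq2 (-0.64). Cd80, with 7.85, 7.42 and 7.03 against 6.28, 5.82 and 5.96 FPKM, had a log2 difference of -0.30 ± 0.07 (SE, adjusted p = 0.0143). Cd274 had one of -0.28 ± 0.06 (SE, adjusted p = 0.0155). Groups were apart for these genes, whereas Cd40 overlapped (log2 difference -0.03, 95% interval -0.24 to 0.17). Tnfsf9, at 63.28, 53.64 and 55.62 against 48.95, 47.33 and 48.99 FPKM, did not pass (log2 difference -0.24 ± 0.19 SE, adjusted p = 0.506).

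**Figure D3:**
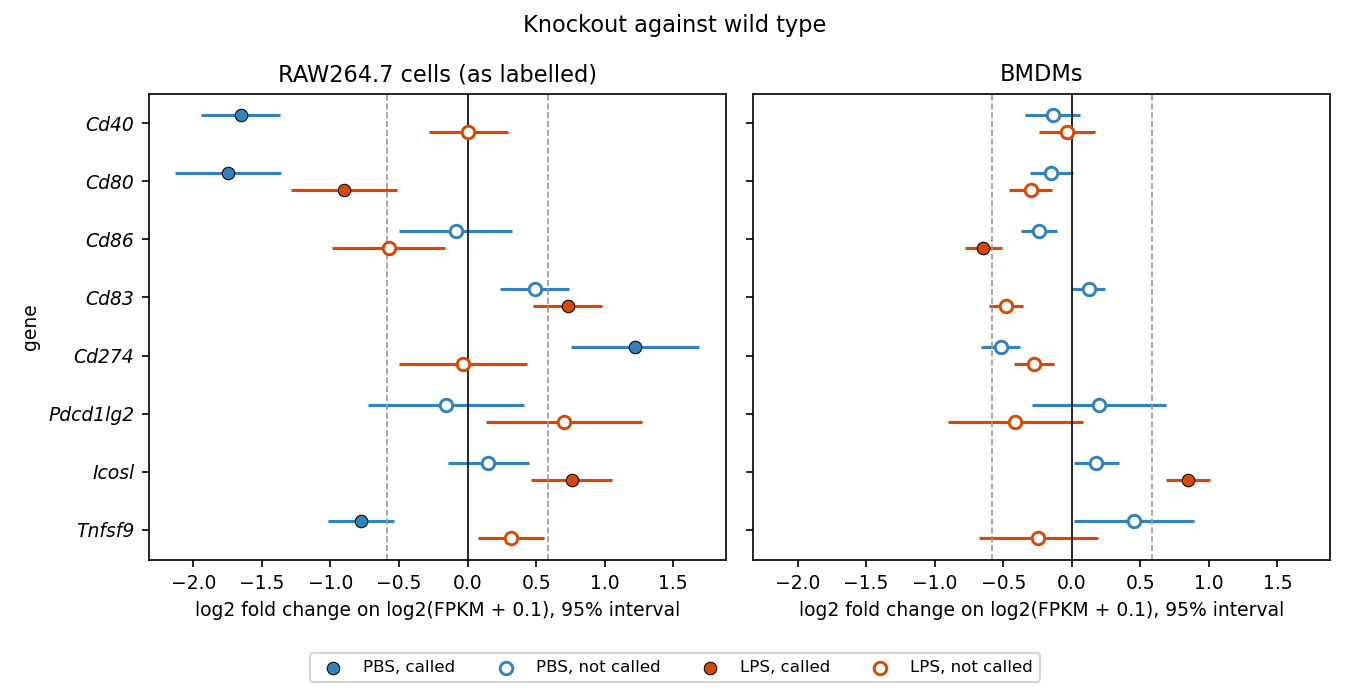
Log2 fold change between libraries labelled knockout and wild type on log2(FPKM + 0.1) for each gene, with 95% intervals from limma, after PBS and after LPS, for RAW264.7 cells and BMDMs. Filled points passed the test: Cd40, Cd80, Tnfsf9 and Cd274 with PBS and Cd80, Cd83 and Icosl with LPS in RAW264.7, and Cd86 and Icosl with LPS in BMDMs.

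The balance of Cd86 and Icosl within a library, a measure that no multiplicative scaling between libraries can move, was 2.76 to 3.44 in wild-type LPS BMDMs and 1.01 to 1.12 in Olfml3-/- LPS BMDMs. With PBS it was 2.32 to 2.60 and 1.66 to 1.93. In RAW264.7, where Cd86 was near 0, the ratio of Icosl to Cd80 was 1.11 to 1.21 in wild-type LPS libraries and 3.50 to 3.79 in LPS libraries labelled knockout. It was 0.620 to 1.24 and 3.57 to 5.40 with PBS. The genotypes did not overlap in either ratio under either treatment, but the pairs were chosen because their genes differed in opposite directions with LPS, so the separation with LPS adds nothing to those differences. A ratio within a library shows unequal change and not which gene changed.

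**Figure D4:**
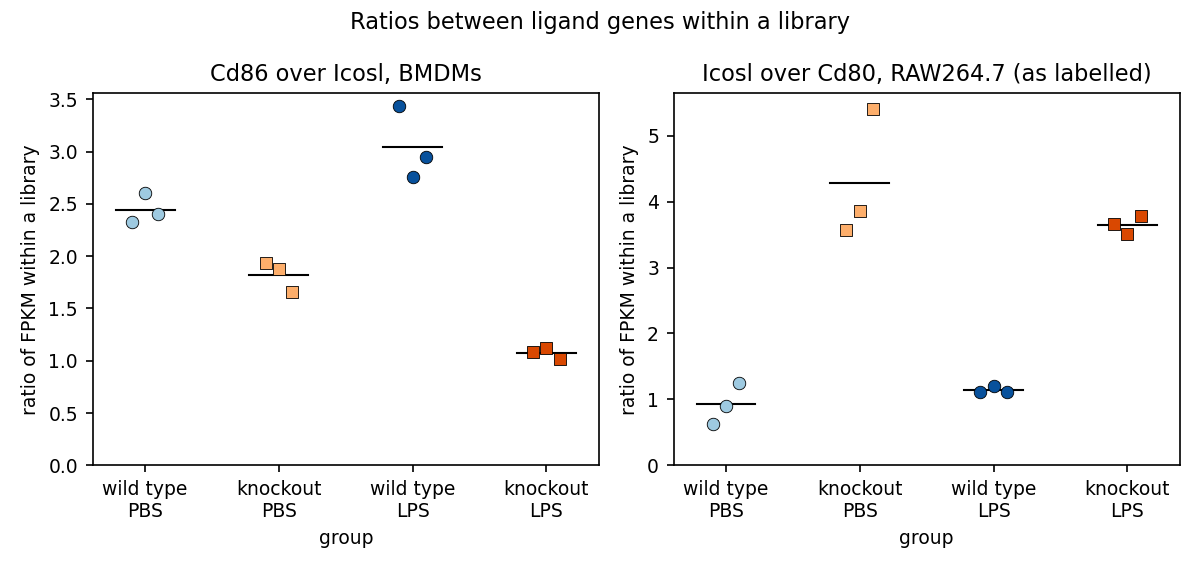
Ratio of FPKM between a pair of ligand genes within each library, Cd86 over Icosl in BMDMs and Icosl over Cd80 in RAW264.7, by labelled genotype and treatment, with the mean of 3 libraries as a line. After LPS the Cd86 to Icosl ratio is 1.01 to 1.12 in Olfml3-/- BMDMs and 2.76 to 3.44 in wild-type BMDMs.

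The interaction in BMDMs was called for Cd83 and Icosl, 2 of 8 members against 2.91% of all genes tested, 1.89% higher and 1.02% lower. For Cd83 it was -0.60 ± 0.08 (SE, adjusted p = 0.00196), since the Olfml3-/- libraries were at 35.62 to 38.89 FPKM with PBS, above the 32.65 to 35.57 FPKM of wild-type libraries, and below them with LPS. The value fell just under the fold threshold without Olfml3-/- PBS replicate 2, wild-type LPS replicate 1 or wild-type PBS replicate 3 (-0.57, -0.57 and -0.58). For Icosl the interaction was 0.67 ± 0.10 (SE, adjusted p = 0.00487), and it fell under the fold threshold with median-ratio scaling (0.56), quantile normalization (0.57), edgeR (0.57) and DESeq2 (0.56). The Cd86 interaction of -0.41 ± 0.08 (SE, adjusted p = 0.0198) was under it. That of Tnfsf9 was -0.70 ± 0.27 (SE, adjusted p = 0.200) and was called by edgeR (-0.83) and DESeq2 (-0.84).

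Some of the T cell receptors for the members were also detected. Of the 6 genes Cd28, Ctla4, Icos, Pdcd1, Tnfrsf9 and Cd40lg, 4 were tested in RAW264.7 and 5 in BMDMs. Pdcd1, which encodes the PD-1 receptor, averaged 7.58 FPKM in wild-type RAW264.7 cells with PBS and 100 FPKM with LPS (log2 change 3.71), and 17.6 and 132 FPKM in cells labelled knockout (2.91). The genotype difference in Pdcd1 with PBS was called (1.20, adjusted p = 3.52e-05). Cd28, the receptor for CD80 and CD86, averaged 53.3 FPKM in wild-type and 58.7 FPKM in Olfml3-/- BMDMs with PBS, and fell by 3.16 and 3.14 on the log2 scale with LPS. Tnfrsf9, the 4-1BB receptor of the Tnfsf9 ligand, rose with LPS in wild-type BMDMs from 0.137 to 1.72 FPKM and in Olfml3-/- BMDMs from 0.0733 to 2.62 FPKM.

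Of 11 genes of CD40 signalling, LPS raised 6 and lowered 2 in wild-type BMDMs, against 7.94% and 32.5% of all genes tested. In Olfml3-/- BMDMs the numbers were 7 and 2, against 8.02% and 30.9%. Either RAW264.7 genotype had 5 and 1, against 5.8% and 12.5% of all genes in wild-type cells and 7.45% and 14.6% in cells labelled knockout. These all-gene shares apply to the LPS counts of the lists that follow. Traf1, an adaptor of the receptor, had a log2 change of 5.82 in wild-type and 6.43 in Olfml3-/- BMDMs. Tnfaip3, the feedback inhibitor A20, had log2 changes of 4.62 and 4.55, and Nfkb2, a subunit of the non-canonical NF-kB pathway, 3.14 and 3.12. Between genotypes, Birc3, an inhibitor of apoptosis protein bound to TRAF2, was higher in the labelled knockout libraries of RAW264.7 with PBS (12.6 against 5.06 FPKM) and with LPS (60.8 against 26.0 FPKM), and Traf1 was lower in Olfml3-/- BMDMs with PBS (0.207 against 0.410 FPKM). With LPS, 0 of 11 were called between the BMDM genotypes by limma, edgeR or DESeq2, where limma called 4.76% of all genes. An unadjusted limma p under 0.05 was reached by 3 of the 11. The share of all genes at that unadjusted p was not computed.

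Interferon and JAK-STAT genes, known regulators of Cd274, gave 8 of 12 called higher and 1 lower with LPS in wild-type BMDMs (7.94% and 32.5% over all genes) and 10 and 1 in Olfml3-/- BMDMs; in RAW264.7 they gave 6 and 2 in either genotype. Between the BMDM genotypes at rest, 0 of 12 were called higher and 3 lower in Olfml3-/- libraries, against 0.901% and 0.905% of all genes. Stat2, a signal transducer of type I interferon, averaged 8.72 FPKM in Olfml3-/- against 21.6 FPKM in wild-type libraries. Irf9, its DNA-binding partner, averaged 6.62 against 12.5 FPKM, and both were called lower. Their interactions were also called, at 1.52 for Stat2 and 0.86 for Irf9. Irf9 was called lower with PBS in RAW264.7 libraries labelled knockout too (2.51 against 4.19 FPKM, limma adjusted p = 0.00303), 1 of 12 against 3.76% of all genes. The part of these genes in the genotype differences of Cd274 was not tested. With LPS, 0 of 12 were called between the BMDM genotypes by limma, against 4.76% of all genes, and edgeR and DESeq2 called 1 each. An unadjusted limma p under 0.05 was reached by 7 of the 12. The share of all genes at that unadjusted p was not computed, and by adjusted p alone it was 17.8%. In RAW264.7, Irf1, a transcription factor of the interferon response, was lower in LPS libraries labelled knockout (14.7 against 25.2 FPKM).

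Other ligands of the B7 and TNF families gave 5 of 10 tested genes higher and 4 lower with LPS in wild-type BMDMs (7.94% and 32.5% over all genes), and 5 and 2 in Olfml3-/- BMDMs. Tnfsf4, the OX40 ligand, had the largest log2 change there, 7.05 and 6.69. Tnfsf15, which encodes the DR3 ligand TL1A, had log2 changes of 6.14 and 6.59 and Tnfsf10, the death ligand TRAIL, 5.73 and 6.15. Tnfsf10 was lower in Olfml3-/- BMDMs, with 0.230 against 0.877 FPKM at rest and 23.3 against 51.6 FPKM after LPS. In RAW264.7, 2 of 11 rose and 2 fell with LPS in either genotype. Cd276, the B7-H3 ligand, fell by 1.61 on the log2 scale in wild-type cells and was lower in libraries labelled knockout with PBS (6.71 against 17.8 FPKM). Tnfsf15 after LPS was 3.49 FPKM in libraries labelled knockout against 0.323 FPKM in wild-type libraries.

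Of 15 other costimulatory, adhesion and checkpoint genes, 8 rose and 4 fell with LPS in BMDMs of either genotype, where 7.94% and 32.5% of all genes did so in wild-type and 8.02% and 30.9% in Olfml3-/- cells, whereas in RAW264.7 6 rose and 5 fell in wild-type cells and 7 and 5 in cells labelled knockout. Icam1, the ligand of LFA-1, reached 424 FPKM in wild-type and 409 FPKM in Olfml3-/- BMDMs. Lgals9, which encodes galectin-9, a TIM-3 ligand, was lower at rest in Olfml3-/- BMDMs (36.2 against 82.3 FPKM) and in RAW264.7 libraries labelled knockout (0.283 against 3.61 FPKM). Cd48, a ligand of CD244 and CD2, was higher in the labelled knockout libraries of RAW264.7 with PBS (18.3 against 2.95 FPKM) and with LPS (11.0 against 1.88 FPKM). Among genes for surface turnover of CD86, CD83 and PD-L1, 0 of 5 were called between genotypes by limma in either cell type under either treatment, where the all-gene shares were in RAW264.7 8.55% at rest and 17.3% after LPS and in BMDMs 1.81% and 4.76%. An unadjusted limma p under 0.05 was reached in RAW264.7 by 1 gene with PBS and by 2 genes after LPS, and in BMDMs by 2 and 4. The all-gene share at that unadjusted p was not computed. edgeR and DESeq2 each called 1, in BMDMs with LPS. Marchf8, a ubiquitin ligase, fell with LPS in wild-type (log2 change -0.97) and Olfml3-/- BMDMs (-0.83), and Cmtm6, which stabilizes PD-L1, rose (1.37 and 1.12).

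The genes whose log2(FPKM + 0.1) most resembled each member over the 12 libraries of a cell type were listed by Pearson's r, which here is high for most LPS-responsive genes because the libraries fall into PBS and LPS groups. In BMDMs the nearest were Ccrl2 to Cd40 (r = 0.9998), Cln3 to Cd80 (0.992), Rin2 to Cd86 (0.9995), Serpina3g to Cd83 (0.9995), Usp25 to Cd274 (0.9998), Cd44 to Icosl (0.998) and Olr1 to Tnfsf9 (0.997). In RAW264.7 they were Tnfaip2 to Cd40 (0.999), Fcgr2b to Cd80 (0.996), Ube2e2 to Cd83 (0.993), Egr1 to Cd274 (0.995), Bcl2a1a to Icosl (0.999) and Rras2 to Tnfsf9 (0.968). The Tnfsf9 pattern in RAW264.7 thus had the least close neighbour of the 6 members with a mean of at least 1 FPKM there. No nearest gene was shared between the cell types.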

How the data were processed

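Groups were taken from the sample titles. The authors sequenced poly(A) libraries with paired reads and deposited gene counts and FPKM for each library, without pooling replicates, in 1 table per cell type; the aligner, the counter and any use of strand were not stated in the methods or labels. Recomputing FPKM from the deposited counts and exonic lengths gave values within 1% for 99.9% (RAW264.7) and 99.5% (BMDMs) of values over 50 counts. Genes above 0 FPKM in at least 1 library, 26740 in RAW264.7 and 26973 in BMDMs, were fitted with limma 3.58.1 (R 4.3.3) on log2(FPKM + 0.1), 4 group means per cell type, two-sided, with Benjamini-Hochberg adjustment over all genes tested. Fold changes on this scale understate changes of low genes. The residual degrees of freedom were 8. Cell types were not tested against each other. Alternatives were pseudocounts of 0.01 and 1, a filter at 1 FPKM in 3 libraries, TPM, median-ratio scaling, quantile normalization, an intensity trend, only the compared groups, adjusted p alone, a replicate block, edgeR 4.0.16, DESeq2 1.42.0 and each library left out; the scripts were tested on simulated data. The members, gene lists and tests were chosen with earlier results of these data known. Named beside the members were Olfml3, marker genes, up to 4 called genes with the largest change in each list, and the genes most like each member; motif patterns were also chosen by hand. Values of 1 listed gene are not reported here.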

Additional observations from a re-analysis of the deposited data

Results flagged for a closer look

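The genotype difference depended on treatment for 4 results by the interaction test of limma with Benjamini-Hochberg adjustment. In RAW264.7 the interaction was 1.66 for Cd40 (adjusted p = 0.00157) and 1.09 for Tnfsf9 (adjusted p = 0.00595), positive under all alternatives run. The Cd40 call was lost in 1 of 23 alternatives and the Tnfsf9 call in 0. In BMDMs it was -0.60 for Cd83 (adjusted p = 0.00196) and 0.67 for Icosl (adjusted p = 0.00487). Both kept their sign under all alternatives run, but each call was lost in 4 of 23. For Icosl these were median-ratio scaling, quantile normalization, edgeR and DESeq2. For Cd83 they were quantile normalization and the fits without Olfml3-/- PBS replicate 2, wild-type LPS replicate 1 or wild-type PBS replicate 3.

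For 3 genes the libraries labelled knockout lay on opposite sides of the wild-type libraries in the 2 cell types, without overlap in either. The difference between cell types was not tested. The share of all genes that did the same was not computed, so this count does not set the members apart from other genes. With PBS, Cd274 had a log2 difference of 1.22 in RAW264.7 and -0.52 in BMDMs. With LPS, Cd83 had 0.73 in RAW264.7 and -0.48 in BMDMs, and Tnfsf9 had 0.32 and -0.24. The RAW264.7 differences of Cd274 and Cd83 were called and the other 4 values were not. In RAW264.7 the level of Olfml3 went against the labels, so the direction of these differences is that of the labels. With the RAW264.7 labels exchanged, these 3 genes would lie on the same side in both cell types, and Cd83 with PBS and Cd80 and Icosl with LPS on opposite sides.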

How the results depend on the processing

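Over all alternatives, 1839 of 1889 values of single members kept their side of the thresholds, 19 no longer passed and 31 newly passed. A changed sign was counted as a reversal only where the main or the alternative value passed, and there were 0 of these. Some values that passed in neither changed sign. Icosl between the RAW264.7 genotypes with PBS, for example, was 0.15 in the main fit and -0.04 after quantile normalization. Counts of members called moved by over 1.5 times as follows. In brackets is the share of all genes tested that each alternative called. In RAW264.7 with PBS the 4 calls between genotypes became 2 with a pseudocount of 1 (5.51%) and 2 in a fit of those groups alone (4.05%). The 2 interaction calls became 4 with edgeR (2.12%) and 5 with DESeq2 (2.01%). In BMDMs the 0 calls between genotypes with PBS became 1 with quantile normalization (1.67%) and 1 by adjusted p alone (4.14%). The 2 calls with LPS became 1 (3.96%) and 5 (17.8%) under the same alternatives. The 2 interaction calls became 1 with median-ratio scaling (2.65%), 0 with quantile normalization (2.35%) and 1 to 2 with single libraries left out (2.69% to 3.07%). The cause of these moves was not tested, other than the thresholds and samples that the alternatives themselves change. Other counts moved less. The 8 calls for LPS in BMDMs became 7 in wild-type and 6 in Olfml3-/- cells with a pseudocount of 1, and 7 in both with the filter at 1 FPKM. The count over all genes for the RAW264.7 PBS comparison moved from 2286 to between 997 (those groups alone) and 5523 (without the library labelled knockout, PBS replicate 1). That library also moved the RAW264.7 interaction count from 521 to 904. By adjusted p alone the BMDM LPS comparison called 4804 genes in place of 1285, and 439 with a pseudocount of 1. The same alternatives gave 1116 and 256 in place of 487 for BMDMs with PBS and 1762 and 402 in place of 786 for the BMDM interaction, and a pseudocount of 1 gave 3054 in place of 4636 for RAW264.7 with LPS.

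Whether replicate numbers pair the samples was not settled. In 8 checks of 3 pairs, 0 pairs had deviations correlated above 0.1, which does not exclude a weaker pairing. In the BMDM comparison with LPS 6 of 6 samples correlated best with their own number, and in the others 0 to 5 of 6, a hint from the data and not the design. With the replicate number as a block the members called were 4, 3, 6, 6 and 2 in RAW264.7 and 0, 2, 8, 8 and 2 in BMDMs (genotype with PBS, genotype with LPS, LPS in wild type, LPS in knockout, interaction), as without it.

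Libraries held few or 0 counts of Pdcd1lg2 in both cell types and of Cd86 in RAW264.7, which limited their tests. Whether this reflects depth or low expression was not tested. Some called differences in RAW264.7 also rested on low counts with PBS. Libraries labelled knockout held 10, 10 and 7 counts of Cd40 and 17, 16 and 13 of Cd80. Wild-type libraries held 13, 25 and 9 counts of Cd274.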
